A study of Mus musculus with 12 samples.

Results

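Livers of vehicle-injected mice on a diet that models metabolic dysfunction-associated steatohepatitis (MASH) were set against the livers of both other groups at once. The members are the 4 libraries of that group, called MD, of 12 in all. The reference is the mean of the group means of 4 control-diet libraries (CD) and 4 libraries from mice on the MASH diet that received cinnabarinic acid (MD+CA). All mice carried floxed AhR alleles, were labelled male, were 8 weeks old at the start and stayed on their diet for 20 weeks. The labels name no Cre line, so the aryl hydrocarbon receptor (AhR) gene is floxed, and not stated to be deleted, in every group. CD mice ate a diet matched for sucrose in which fat gave 10 kcal%. The diet of MD and MD+CA mice held 2% cholesterol, with 20 kcal% from fructose and 40 kcal% from fat. MD mice received 0.2% DMSO in saline by intraperitoneal injection, and MD+CA mice received cinnabarinic acid at 12 mg/kg in the same vehicle. Injection of CD mice is not mentioned in the labels, so MD differs from CD in diet and possibly in injection, and from MD+CA in the compound. They also do not say that each library is a separate mouse, so p-values measure only the spread between libraries.

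Fatty livers differ from healthy ones in how they take up, store and burn fat, and steatohepatitis adds cell stress, inflammation and scarring. Hepatocytes under stress secrete the hormones Gdf15 and Fgf21, and immediate early genes such as Jun and Fos are switched on within minutes of a stimulus. Cinnabarinic acid is a product of tryptophan breakdown and a ligand of AhR, a transcription factor that senses small molecules.

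The 12 libraries held 9089586 to 14492587 reads assigned to transcripts. All 12 had reads of Xist, 5122 to 12865 per library, and 0 reads of 4 Y-linked genes, which goes against the label male in every group. MD libraries had reads of 19281 to 20043 genes and the 8 others of 17419 to 19270, without overlap. The exact two-sided permutation test gave p = 0.00404, the smallest that 495 assignments allow, and adjusted p = 0.0404 over 10 library measures. These gene counts were not adjusted for the number of reads, whose part in them was not tested. The most genes were in MD replicate 2, with 9673290 reads, and the fewest in MD+CA replicate 3, with 9089586. Mitochondrially encoded genes took 10.7, 17.5, 6.16 and 9.37% of the reads of MD replicates 1 to 4 and 4.97 to 7.94% in the other 8 libraries (exact permutation p = 0.0202, adjusted p = 0.101). The hepatocyte markers summed to 67130 to 84500 CPM (read counts scaled to a common library size) in CD, 47890 to 80540 in MD and 59200 to 78990 in MD+CA, so all 12 libraries were of hepatocyte-rich tissue. In bulk liver, fewer cells of a type and less RNA per cell cannot be told apart.

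Of 13631 genes tested, 358 (2.63%) differed between MD and the mean of both other groups at an adjusted p under 0.05 (edgeR quasi-likelihood test, Benjamini-Hochberg adjusted over all genes tested). Of these, 254 were higher in MD (1.86% of genes tested) and the others were lower (0.763%). In 179 of them (1.31%) the 4 MD libraries lay all above or all below the 8 others, which 218 (1.6%) and 227 (1.67%) of all genes tested did. In 154 of these (1.13%) MD+CA also lay near CD, with a difference between these groups under 0.5 of the contrast. These 154 genes, 46 of them lower in MD (0.337%) and the others higher (0.792%), are called the MD-apart genes here. The median log2 difference of MD from the other groups was 1.09 in the higher genes, with a range of 0.54 to 3.35, and -0.94 in the 46 lower genes, with a range of -4.44 to -0.61. These sizes follow from the choice of the genes and are a description. Over all genes tested the median was 0.03.

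MD+CA near CD is what the rule asked for, so the values that follow on it are a description. For 78 of the higher genes and 42 of the 46 lower genes, the 95% interval of the log2 difference between MD+CA and CD lay within 1 on either side of 0. For the other genes the data allow a larger difference. Over all genes tested, 72 (0.528%) differed between MD+CA and CD, and none of the MD-apart genes was among them, while 2 had an unadjusted p under 0.05 in edgeR, as did 1436 (10.5%) of all genes tested. Of the 154, 6 were called in MD against CD (12 of all genes, 0.088%) and 99 in MD against MD+CA (369 of all genes, 2.71%). All 6 were among the 99. These pairwise comparisons share the MD libraries with the contrast. Of the 358 genes called, 204 fell outside the MD-apart genes, because libraries overlapped in 179 and because MD+CA and CD lay too far apart in 25.

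**Figure D1:**
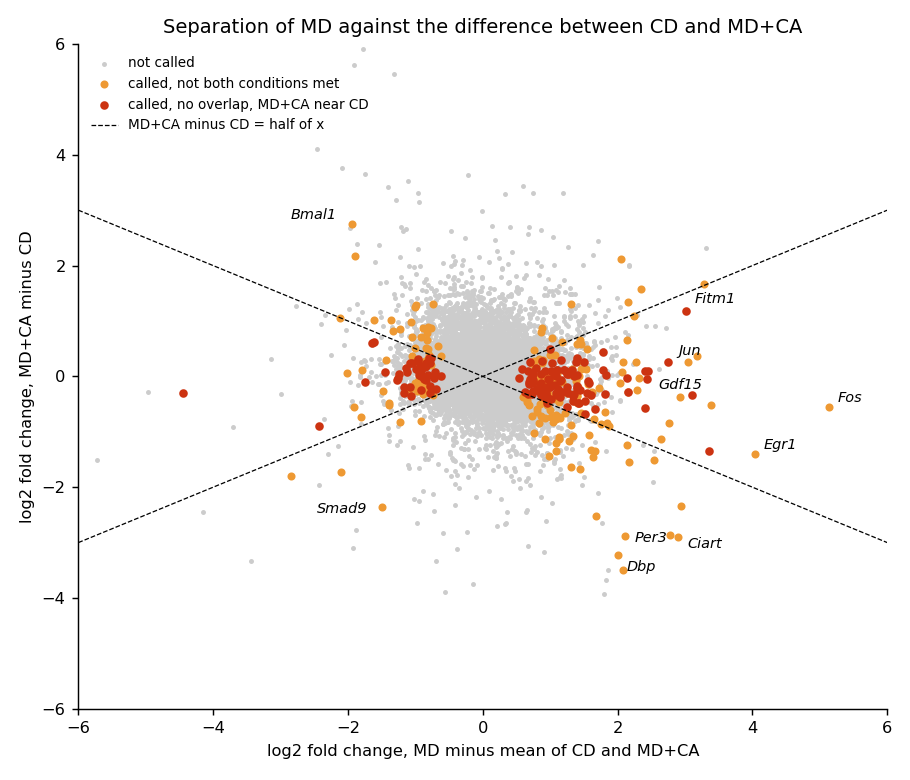
Each point is 1 of the genes tested, with the log2 difference of MD from the mean of CD and MD+CA on the x axis and the log2 difference of MD+CA from CD on the y axis. The MD-apart genes, 46 on the left and the others on the right, lie between the dashed lines, which mark a y value 0.5 times the size of the x value, and 11 genes lie outside the plotted range.

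The number of genes that passed changed with the libraries in the fit. Without MD replicate 1 or 2, 33 genes were called in each case, of which 20 and 17 were MD-apart, and without MD replicate 4 there were 95 and 65. Without MD replicate 3 the counts were 1260 and 728. Without CD replicate 1, 2 or 3 they were 63 and 36, 58 and 31, and 99 and 57, and without CD replicate 4 they were 344 and 188. Without MD+CA replicate 1, 3 or 4 they were 1080 and 396, 237 and 120, and 164 and 76, and without MD+CA replicate 2, 0.771% of genes tested were called and 58 were MD-apart. The genes called in all 12 of these fits were 8 of the 154: Gdf15, Jun, Kifc2, Fbf1, Fitm1, Plppr2 and the noncoding genes Gm42679 and Gm44005. With the mitochondrial share of each library as a covariate, added after seeing the data, 1 gene was called and none of the 154, while 133 of the 154 had an unadjusted p under 0.05 in edgeR, as did 1450 of all 13631 genes. The 154 were chosen on the same contrast and libraries, so nothing is read from that count. Their medians were then 0.75 in the higher and -0.75 in the lower genes. With a fragment length covariate 32 genes were called, 8 of them MD-apart.

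The MD livers were not alike among themselves. For each library the median distance of the higher genes from the mean of CD and MD+CA was taken on the log2(CPM + 1) scale. It was 0.91, 1.29, 0.64 and 0.78 in MD replicates 1 to 4, and -0.11 to 0.25 in the 8 other libraries. The lower genes gave -0.97, -1.32, -0.61 and -0.76, against -0.23 to 0.24 in the others. Both sets stand in the order replicate 2, 1, 4, 3, which is also the order of the mitochondrial shares, 17.5, 10.7, 9.37 and 6.16%. Other library measures share this order. Genes with reads numbered 20043, 19795, 19502 and 19281, and the fragment length allowance was 221, 230, 253 and 261 bases. Retained-intron transcripts took 5.31, 3.90, 3.51 and 3.25% of reads, and transcripts of nonsense-mediated decay 2.27, 1.96, 1.78 and 1.48%. MD replicate 2 lay farthest from the other groups in 77 of the higher and 35 of the 46 lower genes. The part of the mitochondrial share, or of the other library measures, in these values was not tested. MD replicate 3, whose share lay among those of the other groups, was still apart in both sets, as it must be for genes chosen not to overlap.

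**Figure D2:**
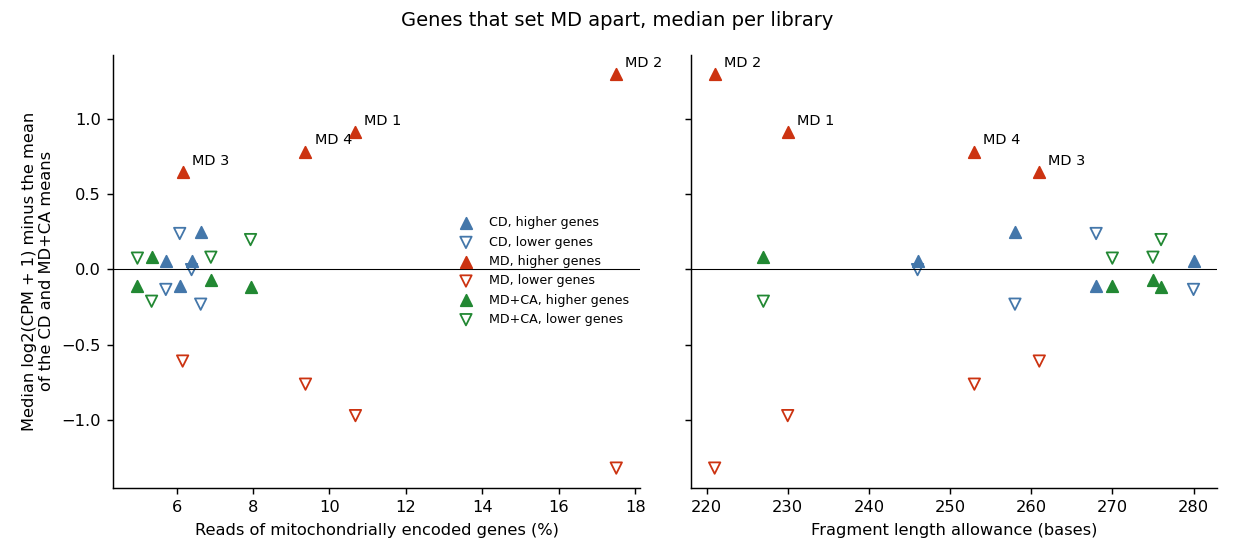
Median log2 distance of the MD-apart genes from the mean of CD and MD+CA in each of the 12 libraries. The x axis is the percent of reads from mitochondrially encoded genes on the left and the fragment length allowance on the right. The higher genes run from 0.64 to 1.29 in the 4 MD libraries and the lower genes from -0.61 to -1.32.

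Genes of secreted signals among the MD-apart genes were Gdf15, Fgf21 and Gdf10, all higher in MD. The 250 bases before a transcript start are shown as examples for Gdf15, Fgf21 and Jun, which were higher in MD, and for Calu, which was lower. They come from RefSeq on build GRCm38.p6, whereas the libraries were quantified on GRCm39. Capitals mark each motif found in them, of CACGTG (the E-box), CCAAT or its reverse ATTGG, TGACGTCA (the cAMP response element), TGAGTCA (the AP-1 site) and GAANNTTC (a heat shock element), searched on both strands. In Gdf15 (chr8:70632096-70632345, minus strand) they are an E-box 83 bases and a reverse CCAAT 6 bases before the start. RefSeq lists 2 promoters of Gdf15, and the other holds none of these motifs. In Fgf21 (chr7:45615491-45615740, minus strand) there is an E-box 50 bases before it. In Jun (chr4:95052223-95052472, minus strand) they are a heat shock element at 128 and a CCAAT at 65 bases. In Calu (chr6:29347856-29348105, plus strand) they are CCAAT boxes at 110, 84 and 36 bases, the last reversed. No motif is common to all the genes shown. The promoters of Fitm1, G0s2, Gdf10 and Rhou, among other named genes, hold none of these motifs.
Gdf15: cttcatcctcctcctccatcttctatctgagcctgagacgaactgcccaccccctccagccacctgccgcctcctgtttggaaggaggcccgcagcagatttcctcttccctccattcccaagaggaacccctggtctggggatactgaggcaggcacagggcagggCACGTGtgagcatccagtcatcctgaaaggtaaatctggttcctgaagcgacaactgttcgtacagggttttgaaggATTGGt
Fgf21: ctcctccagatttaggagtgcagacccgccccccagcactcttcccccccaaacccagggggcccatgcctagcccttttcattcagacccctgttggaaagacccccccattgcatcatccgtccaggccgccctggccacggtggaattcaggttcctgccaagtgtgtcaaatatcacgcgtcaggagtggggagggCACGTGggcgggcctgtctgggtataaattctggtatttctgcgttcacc
Jun: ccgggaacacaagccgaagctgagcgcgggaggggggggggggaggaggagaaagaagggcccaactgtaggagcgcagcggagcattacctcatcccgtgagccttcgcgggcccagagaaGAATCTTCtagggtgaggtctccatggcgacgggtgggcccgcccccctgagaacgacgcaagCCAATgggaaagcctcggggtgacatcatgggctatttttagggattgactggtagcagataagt
Calu: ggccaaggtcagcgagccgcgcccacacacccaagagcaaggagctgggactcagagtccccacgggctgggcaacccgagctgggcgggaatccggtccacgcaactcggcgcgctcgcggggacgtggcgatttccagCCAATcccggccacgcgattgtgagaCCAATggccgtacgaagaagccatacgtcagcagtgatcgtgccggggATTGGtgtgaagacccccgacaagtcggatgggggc

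Promoters of 300 bases, from 250 before to 50 after the start, were matched for 64 of the 83 protein-coding higher genes and 31 of the 42 lower ones. An E-box stood in 14 of the 64 (21.9%) and 4 of the 31 (12.9%), against 11.7% of the 9497 matched among all protein-coding genes tested. A gene counted if any of its promoters held the motif. CCAAT stood in 50.0 and 48.4%, against 43.0%. The AP-1 site was found in 3 of 64 and 3 of 31, against 4.65% of all. The heat shock element was in 6 of 64 and 3 of 31, against 7.15%, and the cAMP response element in 0 of both, against 3.43%. A match is a description of letters, not of a bound site.

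Gdf15, a hormone that liver cells secrete under stress and that acts on the hindbrain to lower appetite, had 27.0, 34.4, 17.5 and 10.3 CPM in MD replicates 1 to 4. It had 4.59, 1.72, 3.93 and 5.35 CPM in CD and 4.23, 2.54, 5.44 and 4.76 in MD+CA. Every MD library was well above the 8 others, and the levels of CD and MD+CA ran through each other. The log2 difference of MD from the mean of both was 2.45 (SE 0.31, edgeR adjusted p = 0.00362), and MD+CA differed from CD by 0.09 (95% interval -0.74 to 0.92). Gdf15 passed in all 12 fits that left out 1 library.

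Fgf21, a hormone of fasting and nutrient stress made by hepatocytes, had 7.71, 3.97, 3.83 and 7.88 CPM in MD. It had 2.70, 1.22, 1.97 and 3.62 in CD and 2.02, 2.29, 2.91 and 2.68 in MD+CA. MD replicates 2 and 3 lay only just above the highest CD library. MD exceeded the mean of both by 1.26 on the log2 scale (SE 0.29, edgeR adjusted p = 0.0383). It passed in 4 of the 12 fits that left out 1 library, and the adjusted p was 0.0588 to 0.125 when leaving out any 1 of CD replicates 1 to 3, MD replicates 1, 2 and 4 and MD+CA replicates 2 and 4. Gdf10, a secreted factor of the TGF-beta family, had 10.5 to 13.4 CPM in MD, against 4.36 to 7.93 in CD and 5.32 to 6.80 in MD+CA (log2 difference 1.01, SE 0.18, edgeR adjusted p = 0.0181, and 0.0597 and 0.0666 without MD replicate 2 and 1).

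Gdf15 and Fgf21 belong to the list of integrated stress response and ER stress genes, and they were its only members called higher. Of 29 tested members, 3 were called lower, so 17.2% of the list was called, against 2.63% of all genes, and the list's median was -0.50, against 0.03 over all genes. The lower members were Xbp1, the transcription factor of the unfolded protein response, Hyou1, an ER chaperone, and Dnajb9, an ER cochaperone. Xbp1 had 37.7 to 63.0 CPM in MD, 101.8 to 109 in CD and 55.6 to 118 in MD+CA, so that MD overlapped MD+CA (log2 difference -0.88, SE 0.21, edgeR adjusted p = 0.0409). Hyou1 had 25.4 to 56.8 CPM in MD, 63.0 to 93.0 in CD and 76.9 to 202 in MD+CA (log2 difference -1.33, SE 0.29, edgeR adjusted p = 0.0343). Hyou1 did not overlap, but its MD+CA level lay 0.82 above CD, past the limit for an MD-apart gene. Without MD replicate 2 the list had 1 member called higher and none lower. Atf4, the central transcription factor of the integrated stress response, gave -0.03 (edgeR adjusted p = 0.94).

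Immediate early genes had 10 of 33 tested members called, all higher, which is 30.3% of the list, against 2.63% of all genes. The list's median was 0.86. Without MD replicate 2 the count was 2, Jun and Fos, and with the mitochondrial share as a covariate it was 0, with 12 members at an unadjusted p under 0.05 in edgeR, against 1450 of all 13631 genes, and a median of 0.70. Of the 10, only Jun and Atf3 were MD-apart.

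Jun, a subunit of the transcription factor AP-1, had 235, 300.5, 181 and 50.5 CPM in MD. It had 26.5, 12.4, 23.2 and 42.3 in CD and 27.6, 45.5, 34.9 and 17.2 in MD+CA. MD replicates 1 to 3 were far above every other library, and MD replicate 4 lay only slightly above the highest of them. The log2 difference was 2.74 (SE 0.38, edgeR adjusted p = 0.00654), and it passed in all 12 fits that left out 1 library. Jun did not pass with the fragment length covariate (2.40, edgeR adjusted p = 0.056) or with the mitochondrial share as a covariate (2.30, adjusted p = 0.127). Atf3, a stress-induced transcription factor, had 1.80 to 6.11 CPM in MD, 0.984 to 1.599 in CD and 0.886 to 1.65 in MD+CA (log2 difference 1.39, SE 0.32, edgeR adjusted p = 0.0409). Its MD values lay above the others by little in replicate 3 and by much in replicate 2, without which the difference was 0.96 and the adjusted p was 0.147. It passed only without CD replicate 4, MD replicate 3 or MD+CA replicate 1, and the adjusted p was 0.0567 to 0.147 in the other 9 fits.

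Fos, the partner of Jun in AP-1, was among the other 8 and overlapped at MD replicate 4. Fos had 83.7, 108.03, 23.2 and 2.55 CPM in MD, 1.62, 0.101, 0.537 and 4.87 in CD and 2.20, 1.39, 1.01 and 0.432 in MD+CA. MD replicates 1 to 3 were high, and replicate 4 was within the range of CD. MD differed from the mean of CD and MD+CA by 5.13 on the log2 scale (SE 0.75, edgeR adjusted p = 0.00815). Egr1 and Junb, transcription factors of the same early response, were called with log2 differences of 4.03 and 2.64, and the lowest MD library overlapped CD in both. Fos, Egr1 and Junb were named after their values were seen.

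**Figure D3:**
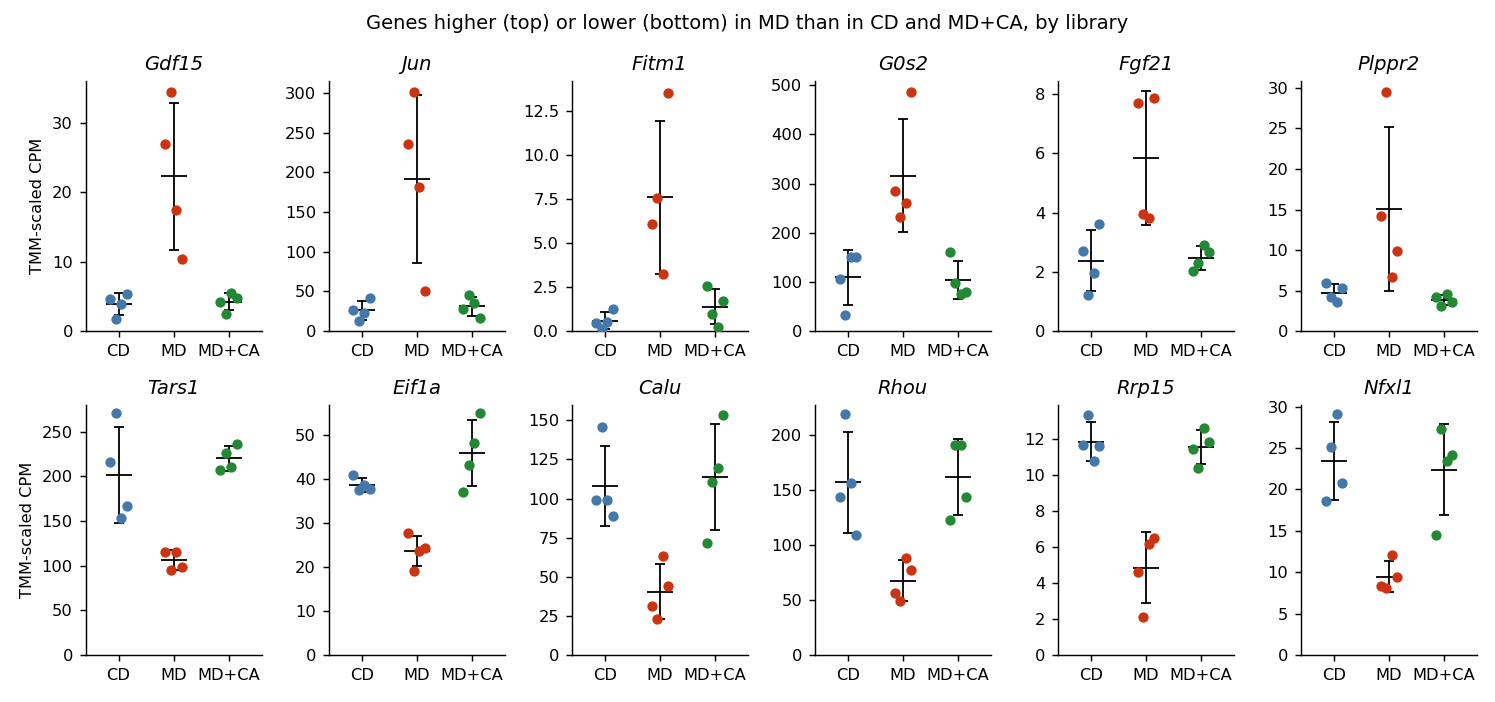
TMM-scaled CPM of 6 higher (top) and 6 lower (bottom) MD-apart genes in each of the 12 libraries, by group, with lines for the mean and bars for 1 SD (n = 4). For Gdf15 the 4 MD libraries lie between 10.3 and 34.4 CPM, and the 8 others between 1.72 and 5.44.

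Genes of lipid droplets and fatty acid uptake were called in 3 of 21 tested members (14.3%, against 2.63% of all genes), all higher and all MD-apart: Fitm1, Mogat1 and G0s2. The list's median was 0.33, and without MD replicate 2 only Fitm1 was called. Fitm1, an ER protein that promotes the budding of lipid droplets, had 6.10, 7.53, 3.23 and 13.5 CPM in MD. It had 0.473, 0.101, 0.537 and 1.25 in CD and 2.57, 0.982, 0.253 and 1.73 in MD+CA. All 4 MD libraries were above the 8 others, and MD replicate 3 lay nearest to them. Fitm1 differed by 3.01 on the log2 scale (SE 0.47, edgeR adjusted p = 0.0115), and MD+CA differed from CD by 1.19, with a wide interval of -0.20 to 2.58.

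G0s2, an inhibitor of adipose triglyceride lipase, had 285, 233, 261 and 486 CPM in MD. It had 106.3, 32.4, 150.2 and 151 in CD and 161, 98.4, 76.3 and 79.5 in MD+CA. MD was above every other library, and both other groups spread over the same range. The log2 difference was 1.56 (SE 0.33, edgeR adjusted p = 0.0313), and it passed in 6 of the 12 fits that left out 1 library. The adjusted p was 0.0548 to 0.0779 when leaving out any 1 of CD replicate 1, MD replicates 1, 2 and 4 and MD+CA replicates 2 and 4. Mogat1, which makes diacylglycerol from monoacylglycerol, was low everywhere, with 1.12, 0.916, 1.20 and 5.01 CPM in MD, 0.0675 to 0.626 in CD and 0.246 to 0.551 in MD+CA (log2 difference 2.40, SE 0.53, edgeR adjusted p = 0.0347). It passed in 3 of the 12 fits that left out 1 library, and without MD replicate 4, the highest, its log2 difference was 1.48. Plin2, a coat protein of lipid droplets, gave 0.10 (edgeR adjusted p = 0.852), with 79.4 to 266 CPM in MD and 84.7 to 201 in CD.

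Agpat1, which makes phosphatidic acid on the way to glycerolipids, had 8.26 to 20.5 CPM in MD, 4.15 to 6.26 in CD and 2.59 to 5.70 in MD+CA (log2 difference 1.44, SE 0.24, edgeR adjusted p = 0.0146, and 0.0558 without MD replicate 2). Slc27a1, a fatty acid transport protein, had 10.1 to 15.4 CPM in MD, 2.84 to 6.05 in CD and 3.42 to 6.34 in MD+CA (log2 difference 1.21, SE 0.22, edgeR adjusted p = 0.0209). With protein-coding transcripts only, the difference was 0.13 (adjusted p = 0.781). Without MD replicate 1 or 4 the adjusted p was 0.0591 and 0.0559.

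Fatty acid oxidation genes and other targets of PPARalpha, the receptor that turns on fat burning, had 2 of 27 tested members called (7.41%, against 2.63% of all genes), both higher, and a median of 0.47. At an unadjusted p under 0.05 in edgeR 12 members were higher, against 25.4% of all genes in either direction. Fgf21 was 1 of them and Ucp2, a mitochondrial carrier, the other. Ucp2 overlapped, with 28.8 to 60.2 CPM in MD and 27.2 to 34.7 in MD+CA. Without MD replicate 2 none was called and the median was 0.57. Pex11a, Mgll and Acaa1a, which are MD-apart and not in that list, were named after their values were seen. Pex11a, which helps peroxisomes multiply, had 89.2 to 217 CPM in MD, 35.3 to 74.9 in CD and 33.0 to 52.6 in MD+CA (log2 difference 1.34, SE 0.25, edgeR adjusted p = 0.0218). It passed in 11 of the 12 fits that left out 1 library, all but the one without MD replicate 4. Mgll, which splits monoacylglycerol, and Acaa1a, a thiolase of peroxisomal fat oxidation, gave 0.94 and 0.88 (edgeR adjusted p = 0.0284 and 0.0498), and passed in 6 and 3 of these fits, neither without MD replicate 2 (0.0764 and 0.122).

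**Figure D4:**
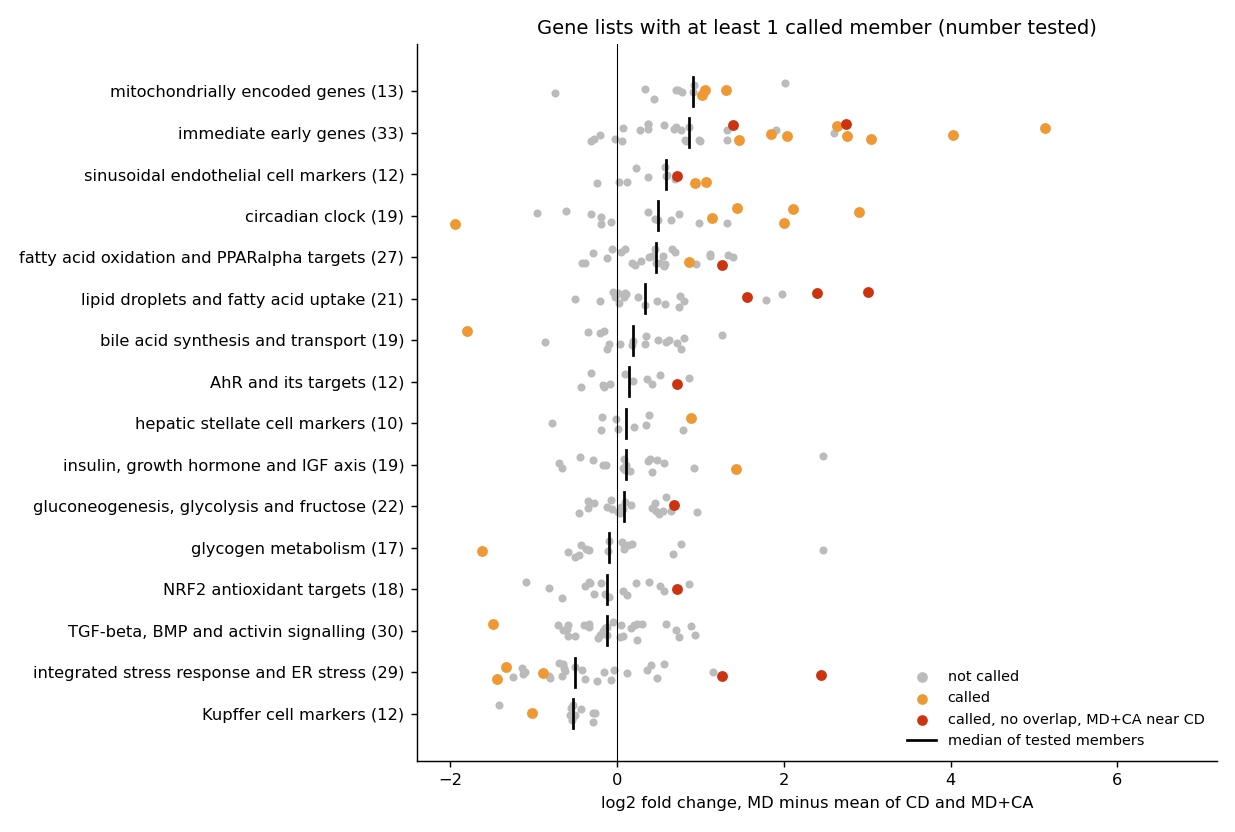
Log2 difference of MD from the mean of CD and MD+CA for every tested member of the gene lists with at least 1 called member, with the number tested in brackets and the median of the list as a bar. Immediate early genes have 10 called members, the highest of them Fos at 5.13, and the MD-apart members of the lipid droplet list lie at 1.56, 2.40 and 3.01.

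Foxo1, the transcription factor that insulin turns off and that drives glucose production, had 37.4 to 56.4 CPM in MD, 29.1 to 35.2 in CD and 23.4 to 36.2 in MD+CA. The groups lay close to each other at MD replicate 1, and the log2 difference was 0.69 (SE 0.16, edgeR adjusted p = 0.0433). It passed only without MD+CA replicate 1 or 3, with an adjusted p of 0.0509 to 0.0992 in the other 10 fits. Nfe2l2 (NRF2), the master regulator of antioxidant genes, had 75.3 to 148 CPM in MD, 62.8 to 71.5 in CD and 44.1 to 62.0 in MD+CA (log2 difference 0.72, SE 0.18, edgeR adjusted p = 0.0498). It passed only without MD replicate 3 or MD+CA replicate 1, with an adjusted p of 0.0566 to 0.145 in the other 10 fits, and without MD replicate 2 the difference was 0.47. In the list of 18 tested NRF2 target and pathway genes, Nfe2l2 itself was the only one called (5.56%, against 2.63% of all genes), and their median was -0.12.

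AhR pathway genes had 1 of 12 tested members called (8.33%, against 2.63% of all genes), Nfe2l2, with a median of 0.14. Ahr itself had 30.9 ± 5.52 CPM in MD (SD, n = 4), 22.8 ± 4.12 in CD and 23.2 ± 7.93 in MD+CA, a log2 difference of 0.42 (SE 0.21, edgeR adjusted p = 0.217). Cyp1a1, a classic AhR target, had 0 to 6 reads per library, and Stc2 and Trem2 1 to 14 each, too few to test.

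Kifc2, a kinesin motor, had 24.2, 39.0, 15.5 and 22.4 CPM in MD, 9.46 to 12.3 in CD and 7.22 to 10.1 in MD+CA, with MD replicate 3 nearest to the others (log2 difference 1.40, SE 0.20, edgeR adjusted p = 0.00815). With protein-coding transcripts only it was 0.88 (adjusted p = 0.141). Fbf1, a protein of the base of the cilium, had 37.5, 53.8, 31.2 and 80.4 CPM in MD, 20.3 to 23.9 in CD and 8.61 to 17.3 in MD+CA (log2 difference 1.51, SE 0.23, edgeR adjusted p = 0.0102). MD was above all others, and MD+CA lay below CD by 0.68 (95% interval -1.27 to -0.08), so Fbf1 was less alike in CD and MD+CA than most of the set. Plppr2, of the lipid phosphatase-related family, had 6.69 to 29.5 CPM in MD, 3.58 to 5.94 in CD and 3.11 to 4.56 in MD+CA (log2 difference 1.81, SE 0.30, edgeR adjusted p = 0.0141). MD replicate 2 was the highest, and without it the difference was 1.26 (adjusted p = 0.0474). With the fragment length covariate it was 1.16 (adjusted p = 0.132), and with the mitochondrial share as a covariate 0.80 (adjusted p = 0.377).

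Stmp1, a small mitochondrial membrane protein, had 54.8 to 78.2 CPM in MD, 29.7 to 39.3 in CD and 34.9 to 44.2 in MD+CA (log2 difference 0.88, SE 0.15, edgeR adjusted p = 0.0146, and 0.0591 without MD replicate 1). Cyp3a41b, a cytochrome P450 of the liver, had 180.5 to 256 CPM in MD, 28.6 to 77.3 in CD and 2.28 to 93.5 in MD+CA (log2 difference 2.41, SE 0.54, edgeR adjusted p = 0.0356). Its near-identical copy Cyp3a41a shares reads with it, so the division between them is uncertain. It passed in 5 of the 12 fits that left out 1 library, and the adjusted p was 0.058 to 0.095 when leaving out any 1 of CD replicates 1 to 3, MD replicates 1, 2 and 4 and MD+CA replicate 2.

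Eng, an endothelial coreceptor of TGF-beta, was the 1 MD-apart gene among 12 markers of sinusoidal endothelial cells, the lining of liver capillaries. It had 27.1 to 42.6 CPM in MD, 18.4 to 26.0 in CD and 15.96 to 25.8 in MD+CA (log2 difference 0.72, SE 0.18, edgeR adjusted p = 0.0498). It passed only without CD replicate 4, MD replicate 3 or MD+CA replicate 1, with an adjusted p of 0.0654 to 0.15 in the other 9 fits. Of the 12 markers 3 were called (25%, against 2.63% of all genes), all higher: Eng, Stab1 and Lyve1, which are a coreceptor and scavenger and hyaluronan receptors. The list's median was 0.58, its summed level was 224 to 311 CPM in MD, 167 to 240 in CD and 123 to 224 in MD+CA, and without MD replicate 2 no marker was called. The part of endothelial cell content in the result was not tested.

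Tars1, the enzyme that charges tRNA with threonine and 1 of the 46 lower genes, had 115, 94.9, 115 and 98.6 CPM in MD. It had 215, 271, 153 and 166 in CD and 207, 226, 210 and 236 in MD+CA. Every MD library was below every other, with CD replicate 3 nearest, and the log2 difference was -0.99 (SE 0.19, edgeR adjusted p = 0.0228). Without MD replicate 1, 2 or 4 the adjusted p was 0.065, 0.0623 and 0.056. Eif1a, a translation initiation factor, had 19.1 to 27.7 CPM in MD, 37.6 to 41.0 in CD and 37.2 to 55.2 in MD+CA (log2 difference -0.83, SE 0.16, edgeR adjusted p = 0.0228, and 0.0525 to 0.0623 without MD replicate 1, 2 or 4). Rrp15, which processes ribosomal RNA, had 4.62, 2.14, 6.16 and 6.53 CPM in MD, 10.8 to 13.4 in CD and 10.4 to 12.7 in MD+CA (log2 difference -1.26, SE 0.24, edgeR adjusted p = 0.0228). Without CD replicate 2 or MD replicate 1 the adjusted p was 0.0519 and 0.0746.

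Calu, a calcium-binding protein of the ER lumen, had 31.3, 22.9, 63.5 and 43.9 CPM in MD. It had 98.9, 146, 99.2 and 88.7 in CD and 71.3, 111, 119.5 and 153 in MD+CA. MD was below every other library, with MD replicate 3 nearest to the lowest MD+CA library. The log2 difference was -1.45 (SE 0.28, edgeR adjusted p = 0.026), MD+CA differed from CD by 0.07 (95% interval -0.57 to 0.72). The adjusted p was 0.0519 to 0.0803 when leaving out any 1 of CD replicate 2 and MD replicates 1, 2 and 4. Chosen after their values were seen, Sec63 and Rpn1, which help import and glycosylate proteins at the ER, gave -0.91 and -0.87 (edgeR adjusted p = 0.0494 and 0.0498). Both passed in 3 of the 12 fits that left out 1 library, and not without MD replicate 2 (0.129 and 0.127).

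Rhou, a small GTPase of the cytoskeleton, had 48.8 to 88.2 CPM in MD, 109 to 219 in CD and 122 to 190.5 in MD+CA (log2 difference -1.24, SE 0.24, edgeR adjusted p = 0.0248, and 0.0785 and 0.0715 without MD replicate 1 and 2). Dbnl, an actin-binding adaptor, and Rbfox2, a splicing factor, gave -1.14 and -0.69 (edgeR adjusted p = 0.0284 in both). The adjusted p of both was 0.0512 to 0.0901 when leaving out any 1 of CD replicates 1 and 2, MD replicates 1, 2 and 4 and MD+CA replicate 2. Over 12 other settings of the processing, Rbfox2 ranged from -0.73 to -0.33 and was called in 9. Dbnl ranged from -1.17 to -0.84 and was called in 10. Nfxl1 gave -1.27 (SE 0.21, edgeR adjusted p = 0.0138), with 8.04 to 12.1 CPM in MD, 18.6 to 29.2 in CD and 14.5 to 27.3 in MD+CA. With protein-coding transcripts only its adjusted p was 0.101, and without MD replicate 1 it was 0.0538. Ccdc162 gave -0.80 (edgeR adjusted p = 0.0313), and with protein-coding transcripts only -0.07 (adjusted p = 0.939). It passed in 6 of the 12 fits that left out 1 library and failed when leaving out any 1 of CD replicates 1 to 3, MD replicates 2 and 4 and MD+CA replicate 2 (0.0569 to 0.0901).

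C8b, the beta chain of complement component C8, had 29.0, 13.2, 25.4 and 23.2 CPM in MD, 49.6 to 67.9 in CD and 39.4 to 177 in MD+CA. MD was below all others, while the MD+CA libraries ran from below CD to well above it. C8b differed by -1.65 on the log2 scale (SE 0.35, edgeR adjusted p = 0.0313, and 0.0569 to 0.10 when leaving out any 1 of CD replicates 1 to 3 and MD replicates 1, 2 and 4). Slc3a1, a subunit of a transporter of cystine and basic amino acids, had 7.56 to 12.9 CPM in MD, 15.6 to 33.5 in CD and 14.5 to 72.9 in MD+CA (log2 difference -1.62, SE 0.35, edgeR adjusted p = 0.0343, and 0.0516 to 0.108 when leaving out any 1 of CD replicates 1 and 2, MD replicates 1, 2 and 4 and MD+CA replicate 4).

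Some prominent genes did not place MD apart from 2 alike groups. Smad9, which carries BMP signals, had 2.58 ± 0.587 CPM in MD, 3.17 ± 1.46 in MD+CA and 16.4 ± 3.95 in CD (SD, n = 4 each). It was called (log2 difference -1.49, SE 0.30, edgeR adjusted p = 0.0284), but MD+CA lay 2.36 below CD, so both groups on the MASH diet were low. The adjusted p was 0.0616 to 0.0746 when leaving out any 1 of CD replicates 1 and 2 and MD replicates 1, 2 and 4. Col1a1, the main collagen of scar tissue, gave 0.90 (SE 0.35, edgeR adjusted p = 0.123). Of 19 tested clock genes, 6 were called (31.6%, against 2.63% of all genes), 5 higher and 1 lower, and none was MD-apart. Per3, a clock repressor, had 56.8 to 91.1 CPM in MD, 28.3 to 48.2 in CD and 1.52 to 11.8 in MD+CA, so that the reference groups stood 2.89 apart on the log2 scale.

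Kupffer cell markers, of the resident macrophages of the liver, had 1 of 12 tested members called (8.33%, against 2.63% of all genes), lower in MD, and a median of -0.53, with MD+CA 1.1 above CD in the median. Their summed level was 242 to 430 CPM in MD, 335 to 392 in CD and 513 to 950 in MD+CA. Acute phase proteins and interferon-stimulated genes had medians of -0.82 and -0.41, against 0.03 over all genes. DESeq2 called 5 members lower in each list, against 10.8% of all genes called in either direction. In the main analysis they had no called member of 18 and 24 (edgeR, with 6 and 9 lower in MD at an unadjusted p under 0.05). Heat shock genes, p53 targets, lipogenesis, cholesterol and glucocorticoid receptor target lists had none of 23, 15, 22, 25 and 20 (edgeR, 4, 0, 6, 6 and 7 at an unadjusted p under 0.05). Of all genes tested, 25.4% (3468) had an unadjusted p under 0.05 in edgeR. Of 13 mitochondrially encoded genes 3 (23.1%, against 2.63% of all genes) were called higher, with a median of 0.91, and none was MD-apart, because MD replicate 3 overlapped the other groups.

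The genes nearest the limit of the rule show how much it sets. Just inside it, Glt1d1 and Mtln had a difference between MD+CA and CD of 0.50 and 0.49 times the contrast. Just outside, Caprin1 and Pitpnc1 had 0.508 and 0.532. In transcript make-up, 13 of the higher genes and 3 of the 46 lower ones were long noncoding, against 6.76% of genes tested. The protein-coding higher genes had a median GC content of 52.3% and a median transcript length of 2484 bases, the lower ones 48.6% and 3108 bases, and all protein-coding genes tested 50.0% and 2858 bases. Reads of retained-intron transcripts made up a median of 0.0978% of a higher coding gene's reads in CD, against 0.246% in MD and 0.134% in MD+CA. Over all coding genes these medians were 0.199, 0.228 and 0.145%.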

How the data were processed

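Poly(A) RNA from snap-frozen liver was sequenced in 12 libraries, 4 per group, taken from the labels. Each deposited table lists 147556 transcripts of 56065 genes with estimated counts of reads (expected counts, not normalized, per the file headers) and TPM values, which the authors scaled for transcript length within each library. Tools named in the submitters' processing notes are Salmon 1.10.3, fastp and DESeq2, with build GRCm39 and no options.

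Expected counts of a gene's transcripts were added up and rounded. TPM and effective lengths were used for an average transcript length in 1 alternative. After edgeR's filterByExpr (minimum count 10), 13631 genes remained, and CPM values are TMM-scaled. The main test was the contrast of MD with the mean of CD and MD+CA in 1 edgeR 4.0.16 quasi-likelihood model of 3 group means over all libraries (residual degrees of freedom 9, common coefficient of biological variation 0.308), Benjamini-Hochberg adjusted, called under 0.05. Each SE is the log2 difference over the square root of its F. Library measures were compared by exact permutation tests, two-sided. Software was matplotlib 3.10.9, pandas 2.3.3, numpy 2.4.6 and Python 3.11.15, with limma 3.58.1 and DESeq2 1.42.0 in R 4.3.3.

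The members and gene lists were chosen with earlier results of these data known. The named genes are the protein-coding MD-apart genes with a full symbol and an average log2 CPM of at least 1: per direction the 10 with the smallest p and the 5 with the largest change, the 4 smallest p per list, and 7 fixed genes. Others are said to be named after their values were seen, as are Stab1, Lyve1, Ucp2, Xbp1, Hyou1, Dnajb9, Atf4, Plin2, Per3 and Mogat1. On simulated counts for the 13631 genes, edgeR recovered 38, 94, 92 and 100% of genes changed by 2, 4, 8 and 16 fold in this contrast, with 4.71% of calls false. The simulated libraries held no differences in quality, such as in mitochondrial share or fragment length. The simulated shares therefore need not hold for the real calls. No pair of libraries within a group agreed within sampling noise.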

Additional observations from a re-analysis of the deposited data

Results flagged for a closer look

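Values of single libraries were compared with the other 3 of their group by the size of the gap over the range of the group. Of 123 such groups 9 stood out, and chance gives about 1 in 20. Eng had 26.0 CPM in CD replicate 4 and 18.4 to 19.05 in the other CD libraries. Slc27a1 had 3.42 CPM in MD+CA replicate 3 and 5.89 to 6.34 in the others.

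CD replicate 2 had 81.6% of its reads on protein-coding transcripts, against 87.3 to 88.5% in the other CD libraries, and 7.15% on ribosomal RNA, against 0.933 to 1.39%. MD replicate 2 had 78.0% on protein-coding transcripts, against 85.9 to 86.8%, and 6.03% on long noncoding transcripts, against 1.96 to 2.12%. MD+CA replicate 3 had reads of 17419 genes, against 18798 to 18907, and 48.8% of its reads on its 100 highest genes, against 41.7 to 42.7%. MD+CA replicate 1 had a fragment length allowance of 227 bases, against 270.0 to 276.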

How the results depend on the processing

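The main analysis called 358 genes in the contrast and 72 in MD+CA against CD, and 1.13% of genes tested were MD-apart. DESeq2 called 1466 and 334 with 2.38% MD-apart, limma voom with sample weights 887 and 179 with 1.75%, and no low-count filter 1141 and 390. The share of calls higher in MD was 70.9% in the main analysis, 51.9% with DESeq2, 55.4% with limma voom and 60.1% without the filter. A fragment length covariate called 32 and 164 with 0.0587% MD-apart, and an average transcript length offset 217 and 34 with 0.748%. Pooling CD and MD+CA as 1 group called 168 and gave no value for MD+CA against CD. Added after seeing the data, protein-coding transcripts only called 202 and 38, and the mitochondrial share as a covariate 1 and 141 with 0% MD-apart. Leaving out each library in turn called 33 to 1260 and 17 to 169, with 0.123 to 5.24% MD-apart. With MD+CA against CD held under 0.25 of the contrast 0.734% were MD-apart, and 0.044% if both pairwise comparisons had to be called. RLE and upper-quartile scaling, and a fit without the genes of mitochondrial and ribosomal RNA, kept all 3 results within 1.5 times. No named gene reversed. Over 744 values of named genes under these settings, 187 were no longer past the threshold, 556 stayed on their side and 1 came to pass it. The causes were not tested.

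Same-numbered libraries correlated at -0.0769 to 0.402 in their deviations from the group means, all positive except CD with MD replicate 2. Differently numbered libraries correlated at -0.44 to 0.351. The labels name no batch, so the main fit held no replicate block. Whether the numbers mark a shared batch was not tested. With the replicate number as a block 556 genes were called, 154 were called in MD+CA against CD, and 1.22% of genes tested were MD-apart. Of the 154 MD-apart genes of the main fit, 137 stayed MD-apart with the block. The p-values given for named genes come from fits without it.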

Other observations

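Among the higher genes that stood apart in the vehicle-treated MASH group, 13 were long noncoding and 12 were of other noncoding or pseudogene types, and those named here were chosen after their values were seen. The major urinary protein pseudogenes Mup-ps12 and Mup-ps16 gave 2.15 and 1.39 (edgeR adjusted p = 0.0267 and 0.0313), and their reads are uncertain because the family is near-identical.

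Usp2, a deubiquitinase that follows the circadian clock, was the 1 gene called with the mitochondrial share as a covariate. It had 22.8 to 45.9 CPM in MD, 11.8 to 21.6 in CD and 0.886 to 2.70 in MD+CA, without overlap. Its log2 difference was 2.78 (SE 0.25, edgeR adjusted p = 0.000125), but MD+CA lay 2.86 below CD, so its reference groups were not alike.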
